A study of Homo sapiens with 3 samples.

Results

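The 6 genes described here are long non-coding RNAs (lncRNAs) that were read very unequally in 3 lung cell lines: UCA1, LINC00958, FLJ22447, LINC00461, LOC100506299 and LINC01234. They were selected on their read numbers in these same libraries, as lncRNAs with a large difference between the lines, and every row of the tables that carries one of these gene names was taken. This gave 10 transcripts of 6 genes, out of 7406 lncRNA transcripts of 5533 genes and 47239 transcripts in all. Since the read numbers chose the genes, their ratios between the lines are given as a description and were not tested.

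Ribosome footprints, the stretches of RNA that a ribosome shields from nuclease, were sequenced from 3 established lines grown in complete DMEM under normal conditions, with no treatment, and with 1 library each. H1299 and A549 are lines of human non-small cell lung cancer, and A549 came from an adenocarcinoma. HBE is a line of human bronchial epithelial cells. The study used such data, together with full-length translating mRNA sequencing, to find lncRNAs that ribosomes occupy. It sought their proteins by mass spectrometry and immunoblotting. The comparisons here ask in which line the footprints of these 6 lncRNAs were found, and whether the coding genes next to them differed in the same way. A footprint level joins the amount of an RNA with its ribosome occupancy, and these cannot be told apart here because no RNA level was analysed. With 1 library per line there was no replicate check: a ratio compares 2 libraries and not 2 conditions, and every interval below covers counting error only.

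The libraries held 35751992 mapped reads in H1299, 38268527 in A549 and 43580281 in HBE, of which 28478839, 31304697 and 34505579 lay on mRNA (RefSeq NM) transcripts. Levels were compared between lines as RPM, here reads per 1000000 NM reads, and between genes as RPKM, reads per kilobase of transcript length and per 1000000 mapped reads. A gene was called higher or lower when its reads over both libraries came to at least 20, its ratio was at least 4 and the exact 95% counting interval of the ratio lay wholly beyond 2. Of the markers of the labelled cell types, 6 of 10 basal epithelial genes were called lower in H1299 than in HBE and 6 of 10 in A549 than in HBE, with KRT17 at 96 reads in H1299, 46 in A549 and 34593 in HBE. Over all coding genes, 2.41% were called lower and 2.29% higher in H1299 against HBE, and 1.47% and 1.95% in A549 against HBE. Of 8 mesenchymal genes, 3 were called higher in H1299 and 2 in A549, each against HBE. Among these 8, the filament gene VIM had 43694, 15327 and 124 reads. SNAI2 (57, 55 and 139) and SPARC (115, 110 and 205) went the other way and were highest in HBE. None of the 6 alveolar and club cell markers with enough reads was called in A549 or H1299 against HBE; SFTPC, the surfactant gene that defines alveolar type II cells, had 35, 40 and 29 reads. Of level references, GAPDH had 61094, 66835 and 57373 reads and ACTB 39242, 60188 and 70424. The called basal genes and VIM differed between the same lines as the 6 lncRNAs, and their part in the lncRNA ratios was not tested.

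lncRNAs are RNA polymerase II transcripts, mostly spliced and polyadenylated like mRNA, that lack a long conserved reading frame. Some act in the nucleus on genes close by, some serve as the host of a microRNA, and many are made in few cell types. UCA1 (urothelial cancer associated 1) and LINC00958, also known as a bladder cancer associated transcript, were first described in bladder carcinoma and have since been studied in other carcinomas. FLJ22447, now LINC03033 in RefSeq, was described in fibroblasts of the tumour stroma. LINC00461, now MIR9-2HG, is the host gene of the microRNA gene MIR9-2 and is best known from the brain. LOC100506299, now ID2-AS1, starts next to ID2 and is transcribed away from it, and LINC01234 has been studied as a lncRNA of gastric and other carcinomas.

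The start regions of UCA1 and FLJ22447 are shown as examples of genes with their highest level in HBE. Each run has 300 bases of GRCh37, 250 before and 50 from the first base of the deposited transcript onwards, read 5′ to 3′ on the strand of the gene. The GENCODE spans of both genes begin further upstream. That of UCA1 begins at 15939016, before its window, and that of FLJ22447 at 62037123, inside its window. Capitals mark matches to any of 5 short motifs searched on both strands. These were TATAAA as the TATA box, CCAAT as the CCAAT box, TGANTCA as the site of AP-1 factors, GGAATG as the site of TEAD factors and ACGTG as the core of the hypoxia response element. Matches did not overlap. The windows of LINC00461 and LINC01234, on the minus strand, were examined in the same way from the upper end of a GENCODE model that shares the lower end of the deposited transcript, with the model nearest in length where several shared it.
UCA1, chr19:15939507-15939806, plus strand: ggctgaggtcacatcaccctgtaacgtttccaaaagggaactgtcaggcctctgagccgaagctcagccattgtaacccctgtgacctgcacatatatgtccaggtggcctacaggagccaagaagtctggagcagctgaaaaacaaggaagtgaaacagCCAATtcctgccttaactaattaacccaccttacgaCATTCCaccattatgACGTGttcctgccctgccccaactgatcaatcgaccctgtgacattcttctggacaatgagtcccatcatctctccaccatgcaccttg
FLJ22447, chr14:62037008-62037307, plus strand: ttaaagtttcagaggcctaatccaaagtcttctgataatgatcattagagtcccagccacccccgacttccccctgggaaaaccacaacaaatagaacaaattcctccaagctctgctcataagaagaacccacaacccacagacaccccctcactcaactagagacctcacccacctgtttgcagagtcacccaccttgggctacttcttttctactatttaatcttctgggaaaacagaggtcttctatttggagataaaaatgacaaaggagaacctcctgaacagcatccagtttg

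The UCA1 window held 3 matches, a CCAAT 90 bases before the start, a TEAD site on the other strand 54 bases before and an ACGTG 39 bases before. The FLJ22447 window held none of the 5, so these 2 windows shared no motif of those searched. Among 35116 RefSeq windows of the same length (GRCh38.p14), 34.6% held a CCAAT, 21.4% an ACGTG, 14.0% a GGAATG, 11.5% a TATAAA and 7.71% a TGANTCA. Of the 4 lncRNA windows examined, 3 held a CCAAT, 2 an ACGTG, 1 a GGAATG and none a TATAAA or a TGANTCA. A match is a string of letters and not a shown binding site.

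The 4 windows were poorer in G and C than most. They had 52.0% G or C for LINC00461, 51.0% for LINC01234, 50.3% for UCA1 and 45.0% for FLJ22447, against a median of 58.7% over all RefSeq windows, and 8, 4, 5 and 1 CpG dinucleotides, against a median of 14.

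The MIR9-2 precursor is shown because it lies inside a LINC00461 exon. It spans chr5:87962671-87962757 on the minus strand (hg19), 87 bases that fall within an exon of 3147 bases, and the RefSeq hairpin was identical to the genome there. Capitals in the precursor mark miR-9-5p, and in the mature miR-9-5p its seed (bases 2 to 8).
MIR9-2 precursor: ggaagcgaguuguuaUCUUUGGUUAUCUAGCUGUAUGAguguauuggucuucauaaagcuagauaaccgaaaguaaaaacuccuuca
hsa-miR-9-5p: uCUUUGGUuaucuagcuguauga

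Most UCA1 reads came from the HBE library. Its transcript NR_015379 (chromosome 19, plus strand, from 15939757 in hg19, 2314 nt) had 35 reads in H1299, 17 in A549 and 2478 in HBE. This was 1.23 RPM in H1299, 0.543 RPM in A549 and 71.8 RPM in HBE, and the exact 95% Poisson intervals of these levels, 0.856 to 1.71 for H1299, 0.316 to 0.869 for A549 and 69.0 to 74.7 for HBE, put HBE far above both cancer lines. UCA1 was 57.6-fold lower in H1299 than in HBE (interval 41.9 to 84.1) and 128-fold lower in A549 than in HBE (82.4 to 227). HBE held 97.6% of the scaled UCA1 reads of the 3 lines. Between the cancer lines the ratio of H1299 to A549 was 2.23 (1.23 to 4.31). By RPKM, UCA1 reached 24.6 in HBE, above 96.3% of the NM transcripts of that library, against 0.423 in H1299 and 0.192 in A549.

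LINC00958 had the same order of lines, but its levels in the cancer lines could not be told apart. NR_038904 (chromosome 11, minus strand, from 13001081, 1576 nt) had 36 reads in H1299, 39 in A549 and 1012 in HBE. The scaled levels were 1.26, 1.25 and 29.3 RPM. It was 22.9-fold lower in H1299 than in HBE (16.6 to 33.3) and 23.3-fold lower in A549 than in HBE (17.1 to 33.3), while H1299 over A549 gave 1.02 (0.627 to 1.64). FLJ22447 was the lowest of the 3 genes that were highest in HBE. NR_039985 (chromosome 14, plus strand, from 62037258, 1386 nt) had 13 reads in H1299, 8 in A549 and 387 in HBE, or 0.456, 0.256 and 11.2 RPM. The ratio to HBE was 23.7-fold lower in H1299 (14.2 to 46.6) and 41.4-fold lower in A549 (22.1 to 102), and the ratio of H1299 to A549 was 1.75 with an interval of 0.686 to 4.97 that includes equality.

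LINC00461 had the opposite pattern and the most reads of the 6 genes. Its 3 transcripts together had 5436 reads in H1299, 1835 in A549 and 52 in HBE, which is 191, 58.6 and 1.51 RPM. LINC00461 was 125-fold higher in H1299 than in HBE (96.4 to 170) and 38.5-fold higher in A549 than in HBE (29.5 to 52.3). H1299 also exceeded A549, by 3.26-fold (3.09 to 3.44). H1299 held 76.0% of the scaled reads, A549 23.4% and HBE 0.60%.

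LOC100506299 was highest in A549. Its 2 transcripts had 346 reads in H1299, 1142 in A549 and 64 in HBE, or 12.1, 36.5 and 1.85 RPM. It was 6.51-fold higher in H1299 than in HBE (5.0 to 8.69) and 19.5-fold higher in A549 than in HBE (15.3 to 25.7), and 3.0-fold lower in H1299 than in A549 (2.66 to 3.40). LINC01234 was nearly level in the cancer lines. It had 375 reads in H1299, 338 in A549 and 52 in HBE, or 13.2, 10.8 and 1.51 RPM, which is 8.67-fold higher in H1299 than in HBE (6.52 to 11.9) and 7.11-fold higher in A549 than in HBE (5.34 to 9.79). The ratio of H1299 to A549 was 1.22 (1.05 to 1.42).

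**Figure D1:**
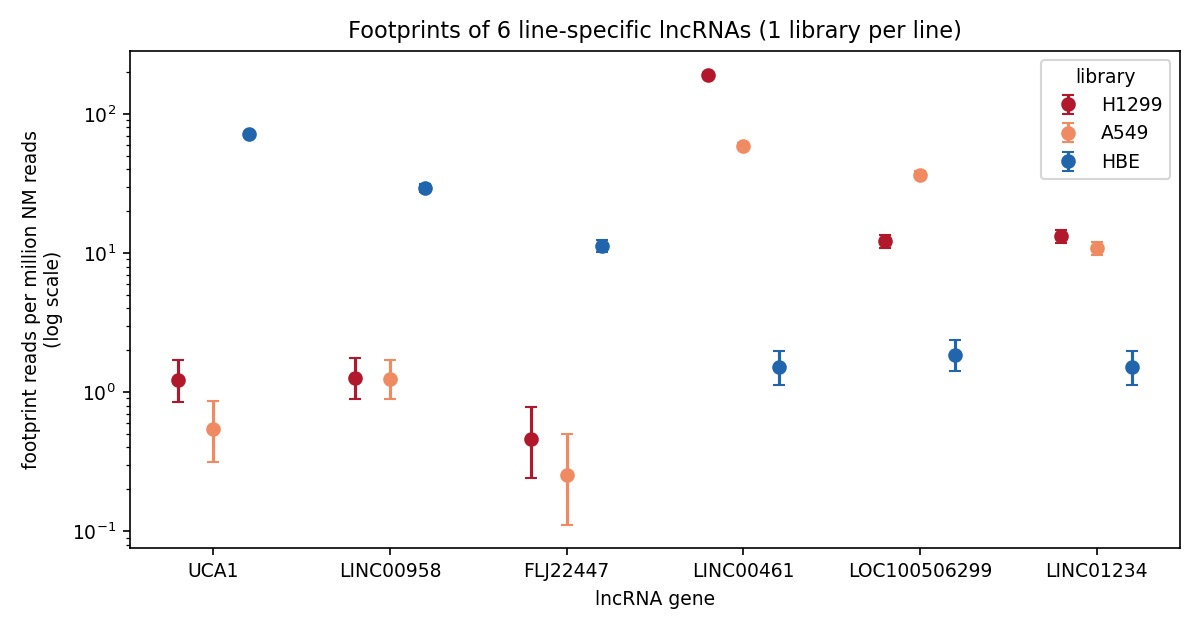
RPM (reads per 1000000 NM reads) of the 6 lncRNAs (log scale) in the H1299, A549 and HBE libraries, 1 library per line, with 95% Poisson intervals of the counts. UCA1, LINC00958 and FLJ22447 are highest in HBE (71.8, 29.3 and 11.2), while LINC00461, LOC100506299 and LINC01234 lie at 1.51, 1.85 and 1.51 in HBE, below both cancer lines.

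By the call above, 3 of the 6 genes were higher and 3 lower in H1299 than in HBE, and so it was in A549 against HBE. LINC00461, LOC100506299 and LINC01234 were the higher ones and UCA1, LINC00958 and FLJ22447 the lower ones in both. Over all lncRNA genes, 2.47% of 4162 were called higher and 0.721% lower in H1299 against HBE, and 1.45% of 4199 were higher and 0.524% lower in A549 against HBE. Nothing is read from the difference, since the genes were selected on these values. None of the 6 was called in H1299 against A549, where 0.999% of 4306 lncRNA genes were higher and 0.906% lower. The comparisons with HBE share that library. In the order of all lncRNA genes by H1299 over HBE, LINC00461 was at the top, LINC01234 at place 21 and LOC100506299 at place 36, and UCA1, FLJ22447 and LINC00958 were at places 2, 5 and 6 from the bottom. By A549 over HBE, LINC00461 was at place 2, LOC100506299 at 3 and LINC01234 at 24, and UCA1, FLJ22447 and LINC00958 were at 2, 3 and 8 from the bottom. The median log2 ratio over all lncRNA genes was 0.53 in H1299 against HBE and 0.50 in A549 against HBE, so the middle of the distribution was itself above 0. Scaling by TMM factors, which centre the bulk of the genes, gave 55 lncRNA genes higher and 47 lower in H1299 against HBE, beside 103 and 30 with NM reads, and 35 and 38 in A549 against HBE, beside 61 and 22, and it left the calls of the 6 genes as they were.

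**Figure D2:**
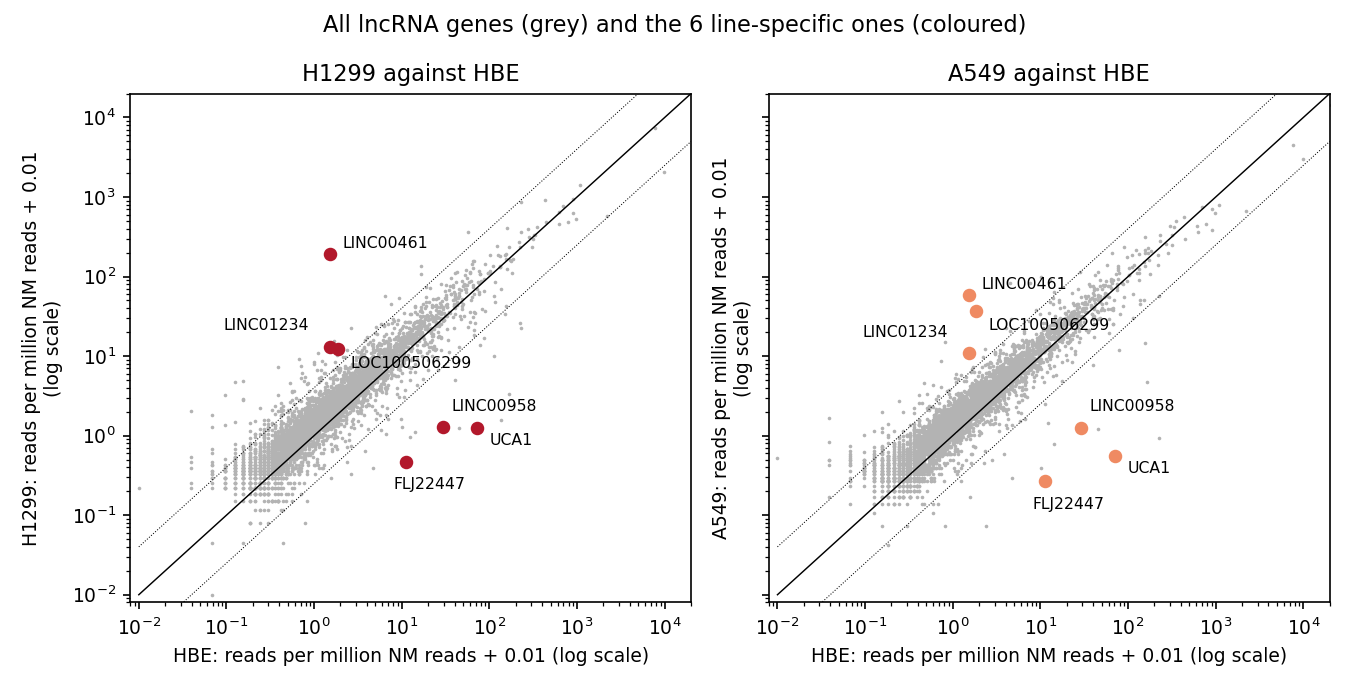
RPM (reads per 1000000 NM reads) plus 0.01 of all lncRNA genes with at least 20 reads (grey) in H1299 (left) and A549 (right) against HBE, both axes on a log scale, with the 6 lncRNAs coloured. The solid line is equality and the dotted lines are 4-fold, and the 6 genes lie outside the dotted lines in both panels.

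The low levels were as low as a background measured in the same libraries. Olfactory receptor genes, which belong to sensory neurons of the nose, served as that background (a comparison added after the values had been seen). Their 379 coding transcripts had a median RPKM of 0.644 in H1299, 0.688 in A549 and 0.461 in HBE, and 373, 372 and 370 of them had reads. UCA1 in H1299 lay above 27.4% of these transcripts and in A549 above 7.65%, LINC00958 above 49.9% and 44.6%, and FLJ22447 above 13.7% and 5.80%. In HBE the same genes lay above 98.4%, 98.2% and 97.1%. In the cancer lines the 3 lncRNAs therefore lay within the spread of the olfactory receptors, and in HBE above nearly all of them.

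The genes raised in the cancer lines were less uniform against this background. The main LINC00461 transcript lay above 99.5% of the olfactory receptor transcripts in H1299, 97.6% in A549 and 24.8% in HBE. The main LOC100506299 transcript lay above 97.9% and 98.9% in H1299 and A549 but still above 88.4% in HBE. Its 1.53 RPKM in HBE was in the upper part of the background but within its spread, whose 95th percentile was 3.34. Of LINC01234, NR_110025 lay above 93.7% in H1299, 91.3% in A549 and 56.7% in HBE, and NR_110026 above 86.0%, 64.6% and 3.43%. In H1299 they had 3.24 and 1.67 RPKM, under the 95th percentile of 4.89 there. In A549 they had 3.24 and 0.929 RPKM, under 4.97. Both LINC01234 transcripts thus lay within the spread of the background in the cancer lines too.

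The transcripts of a gene did not share its reads evenly. Of the LINC00461 reads, NR_024383 (chromosome 5, minus strand, from 87960263, 3360 nt) held 5427 in H1299, 1819 in A549 and 38 in HBE. NR_024384, which has the same lowest coordinate, the 3′ end on this strand, and is longer (3562 nt), held 2, 5 and 3 reads. In GENCODE the matching models share 3260 exonic bases, 96.4% of the shorter and 91.0% of the longer, so a read from most of their length fits both and the authors' mapping decided which row received it. NR_015436, a 641 nt transcript from 87836597, held 7, 11 and 11 reads, with overlapping Poisson intervals. The pattern of LINC00461 thus rested on the row of NR_024383, at an RPKM of 45.2 in H1299, 14.1 in A549 and 0.260 in HBE. Counts are per whole transcript, so they do not place the reads on the exon that holds MIR9-2.

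For LOC100506299, NR_110153 (chromosome 2, minus strand, from 8819939, 826 nt) held 334, 1113 and 55 reads in H1299, A549 and HBE, and NR_110154 (from 8811114, 794 nt) held 12, 29 and 9. At 35.2 RPKM in A549, NR_110153 was above 99.1% of 4589 stand-alone lncRNA transcripts, those that share no name with a coding gene and are not named as a pseudogene of one. It stood at 11.3 RPKM in H1299 and 1.53 in HBE. For LINC01234, NR_110025 (chromosome 12, minus strand, from 114182382, 2088 nt) held 242, 259 and 48 reads and NR_110026 (2222 nt, same lowest coordinate) 133, 79 and 4. Both LINC01234 transcripts were called higher in each cancer line than in HBE. The share of NR_110026 among the reads of the gene was 35.5% in H1299, 23.4% in A549 and 7.69% in HBE. GENCODE has a model of exactly the length and lowest coordinate of NR_110025, with 2 exons and its 5′ end at 114211488.

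**Figure D3:**
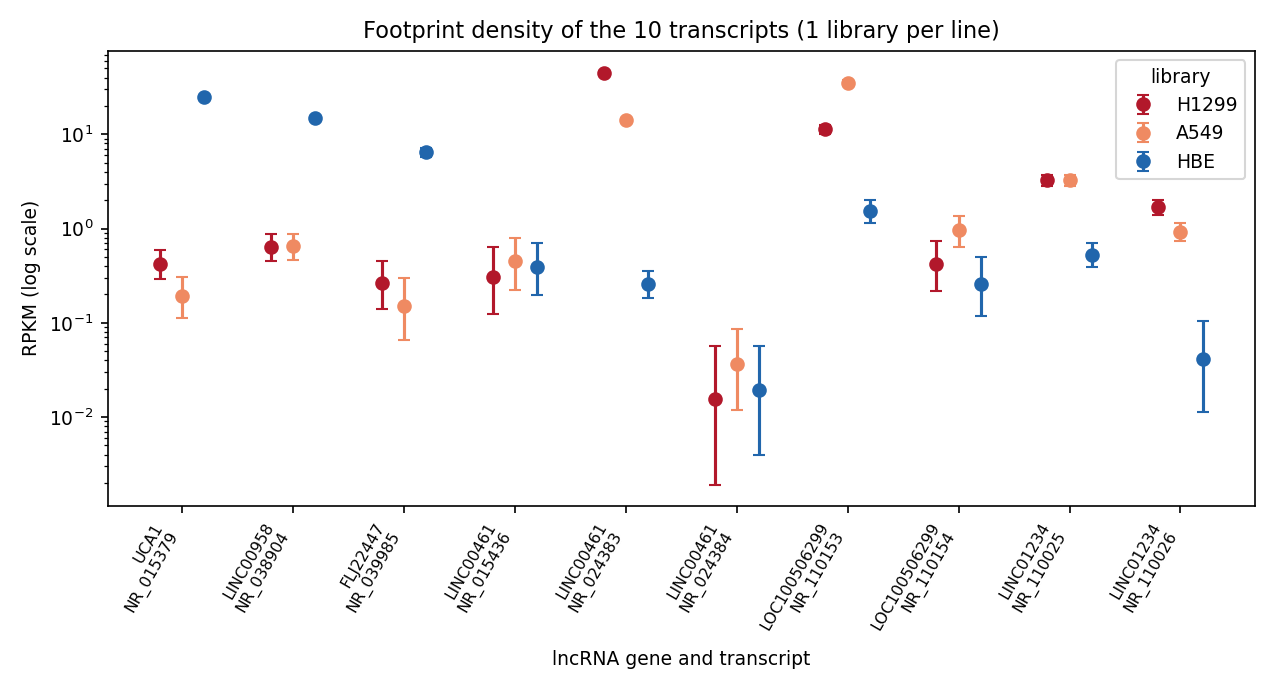
RPKM (log scale) of the 10 transcripts in H1299, A549 and HBE, 1 library per line, with 95% Poisson intervals of the counts. NR_024383 carries the LINC00461 pattern (45.2, 14.1 and 0.260 RPKM), while NR_024384 and NR_015436 of the same gene stay at or below 0.448 RPKM in all 3 libraries.

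The microRNA rows held few reads. MIR9-2 had 0 reads in H1299, A549 and HBE, although its 87 bases are part of the LINC00461 exon; the 3 reads that a count of 0 allows come to 0.105, 0.0958 and 0.0869 RPM, and the upper ends of the exact Poisson intervals to 0.130, 0.118 and 0.107 RPM. A row of zeros does not show whether MIR9-2 follows its host. MIR9-1 and MIR9-3 lie on chromosomes 1 and 15, outside LINC00461, and had 3, 2 and 0 and 13, 3 and 0 reads in H1299, A549 and HBE. Precursors are cut from the host RNA in the nucleus, and the 3 genes make the same mature miR-9, so these rows do not give its level.

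The coding genes next to the 6 lncRNAs were compared in the same way, since their values had no part in selecting the lncRNAs. The 3 nearest on each side, by the lowest coordinate of each gene, gave 36 genes, all with enough reads. Their distances ran from 11.0 kb (ID2 from LOC100506299) to 1917 kb (MBLAC2 from LINC00461), so not all of the 36 genes are close. Of these, 0 were called higher and 2 lower in H1299 against HBE (CYP4F11 and HIF1A), where 2.29% of 18652 coding genes were higher and 2.41% lower. In A549 against HBE, 3 were called higher (CYP4F11, ID2 and SLC38A6) and 0 lower, beside 1.95% of 18703 coding genes higher and 1.47% lower. In H1299 against A549, 1 was called higher (RASA1) and 2 lower (CYP4F11 and ID2), beside 0.93% and 2.01% of 18716. The median log2 ratio of the 36 genes was 0.21 in H1299 against HBE and 0.59 in A549 against HBE, and that of all coding genes 0.38 and 0.35. The scaling set part of these counts. With TMM or upper quartile factors, or with NM reads without the most abundant transcripts, ID2 was the only neighbour called higher in A549 against HBE, and SYT16 (29 reads in H1299, 40 in A549 and 137 in HBE) joined CYP4F11 and HIF1A as lower in H1299 against HBE. Most neighbours were not called in any pair.

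ID2 was the one called neighbour of LOC100506299 and, like it, was highest in A549. It encodes an inhibitor of basic helix-loop-helix transcription factors that binds them and keeps them off DNA. ID2 had 117 reads in H1299, 1233 in A549 and 48 in HBE, and LOC100506299 had 346, 1142 and 64. ID2 was 28.0-fold higher in A549 than in HBE (21.2 to 38.6) and 9.55-fold lower in H1299 than in A549 (7.93 to 11.7). In H1299 against HBE its ratio of 2.94 (2.09 to 4.22) stayed under 4. The GENCODE span of ID2 (from 8818975) reaches into that of the lncRNA (up to 8821994), which lies on the other strand. The ID2 transcripts that were counted start at 8822113, above that upper end. No source used here states whether counting used the strand, so any reads that fit both genes cannot be told apart by strand. Their part in the levels was not tested. KIDINS220, the next gene, had 1083 reads in H1299, 3043 in A549 and 1781 in HBE and was not called in any pair.

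Beside FLJ22447, HIF1A was also highest in HBE. It encodes the oxygen-regulated subunit of the hypoxia-inducible factor and starts 124.9 kb from FLJ22447. HIF1A had 1933 reads in H1299, 7446 in A549 and 15110 in HBE, which is 6.45-fold lower in H1299 than in HBE (6.15 to 6.77) and 1.84-fold lower in A549 than in HBE (1.79 to 1.89). HIF1A was thus lowest in H1299. For FLJ22447, with 13 reads in H1299 and 8 in A549, the lowest line was not settled (H1299 over A549 1.75, interval 0.686 to 4.97). SNAPC1, a subunit of the complex that drives small nuclear RNA genes, had 2475, 1334 and 3402 reads. SLC38A6, of an amino acid transporter family and 589 kb away, had 139, 536 and 146 reads. It was 4.04-fold higher in A549 than in HBE (3.36 to 4.89), just past the threshold and not past it under those other scalings.

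UCA1 lies among olfactory receptor and cytochrome P450 4F genes. CYP4F11, which hydroxylates long fatty acids and lies 83.4 kb away, had 42 reads in H1299, 1509 in A549 and 393 in HBE. It was 4.23-fold higher in A549 than in HBE (3.79 to 4.74), where UCA1 was lower, a call also lost under the other scalings, and 7.64-fold lower in H1299 than in HBE (5.61 to 10.9). CYP4F2 had 51, 73 and 63 reads, and OR10H1, the nearest of the neighbours at 21.9 kb, had 83, 108 and 68. UCA1 and CYP4F11 thus had different orders of lines.

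The other loci showed no called neighbour in either cancer line against HBE. MEF2C, a transcription factor of muscle and neurons that lies 53.8 kb from NR_024383, the LINC00461 transcript with most of the reads, had 3421 reads in H1299, 3816 in A549 and 2894 in HBE, with ratios to HBE of 1.43 and 1.45. RASA1, which switches RAS proteins off and lies 1273 kb from LINC00461, had 11950, 1885 and 4269 reads and was called higher in H1299 than in A549. TMEM161B, on the same side as RASA1, had 1943, 2973 and 2039 and was not called in any pair. Beside LINC00958, the YAP partner TEAD1 had 875, 2307 and 1252 reads and RASSF10 86, 205 and 82. Beside LINC01234, RBM19, which takes part in ribosome assembly, had 814, 817 and 579 reads. Further off, TBX5 (609 kb) had 108, 158 and 92 and TBX3 (926 kb) 256, 491 and 310. The T-box genes are developmental transcription factors.

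**Figure D4:**
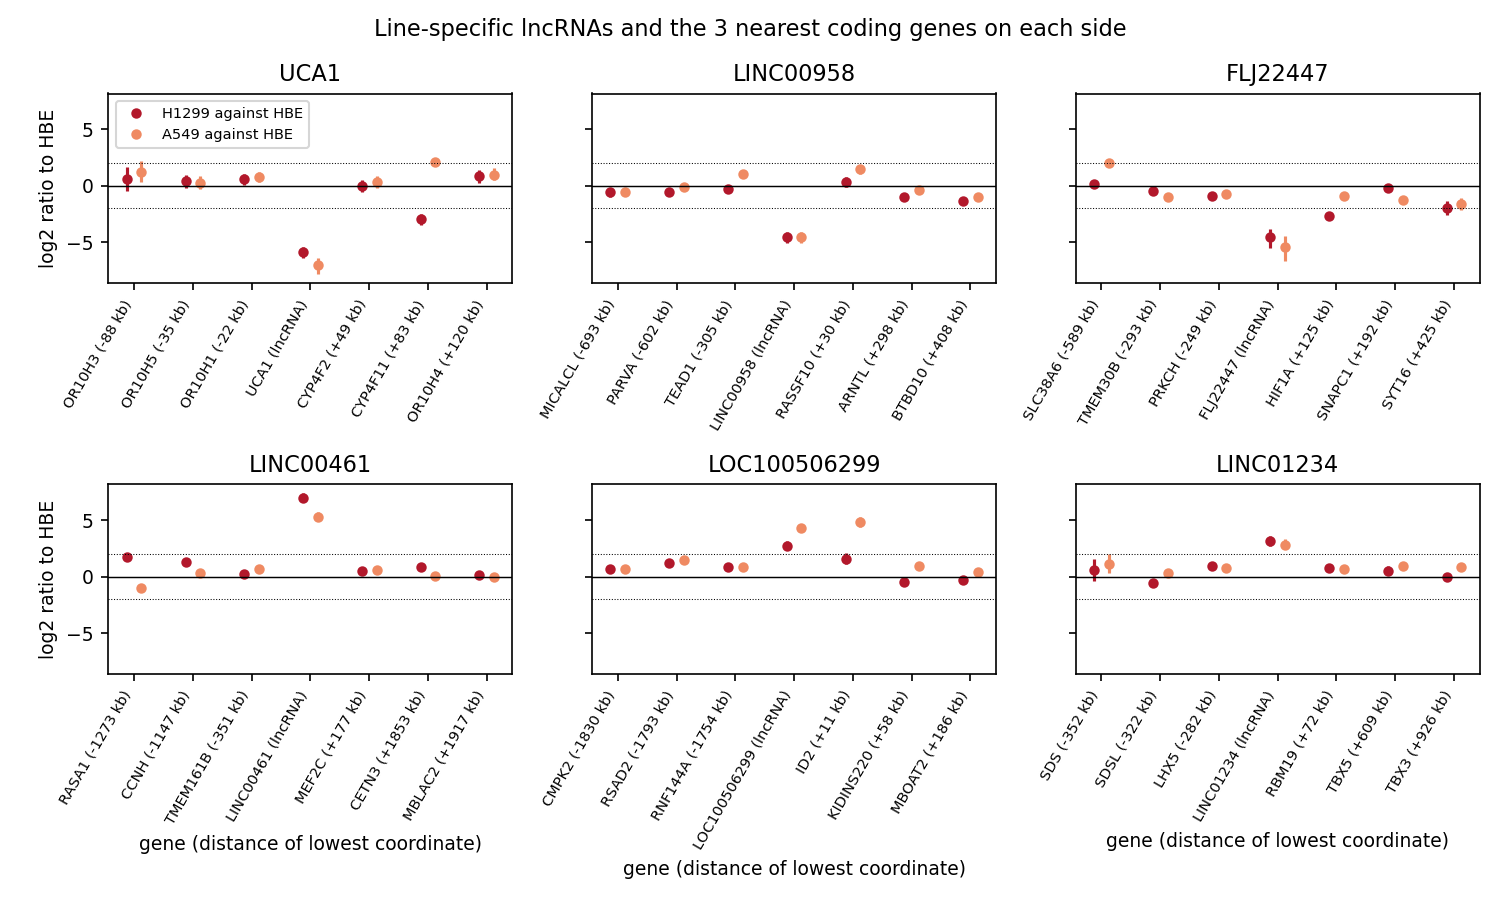
log2 ratio of H1299 and A549 to HBE for each of the 6 lncRNAs and the 3 nearest coding genes on each side, with the distance between their lowest coordinates in kb and vertical bars for 95% counting intervals. The dotted lines are a 4-fold difference, and ID2 (A549), CYP4F11, HIF1A (H1299) and SLC38A6 (A549) lie beyond them. The lncRNA stands beyond its neighbours in each panel except that of LOC100506299. Nothing is read from this, since the lncRNAs were selected on their differences between these libraries and the neighbours by position.

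The 6 lncRNAs lay on both sides of the usual distance to a coding gene. The nearest coding start lay 11.0 kb from LOC100506299, 21.9 kb from UCA1, 29.9 kb from LINC00958, 72.2 kb from LINC01234, 124.9 kb from FLJ22447 and 177.5 kb from LINC00461, and the median over stand-alone lncRNA genes was 43.3 kb. These distances use the lowest coordinate of each gene, which on the minus strand is its 3′ end, over all of its transcripts. From the most read transcript the nearest coding gene lay 2.17 kb away for LOC100506299 and 53.8 kb for LINC00461, with the other 4 distances and all 36 neighbours as before. In GENCODE the gene spans were 8.12 kb for UCA1, 15.2 kb for LOC100506299, 28.1 kb for LINC00958, 88.3 kb for FLJ22447, 183.5 kb for LINC00461 and 189.8 kb for LINC01234.

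Other genes with a like pattern over the 3 libraries were found by the root mean square difference of log2 scaled reads, each gene centred on its own mean, among 2477 lncRNA and 17473 coding genes with at least 100 reads. With 3 libraries this measure of likeness is coarse, and it says nothing of shared function or control. The coding genes most like UCA1 were RAB25 (20 reads in H1299, 12 in A549 and 1281 in HBE), TSPAN1 (59, 44 and 5590) and MT1E (15, 11 and 1538), at 0.19, 0.25 and 0.26 on the log2 scale. RAB25 is an epithelial trafficking GTPase, TSPAN1 a tetraspanin and MT1E a metallothionein. Those most like LINC00958 were HCAR3 (99, 110 and 2957), LAD1 (56, 56 and 1623), a protein of the basement membrane zone, and the epithelial splicing factor ESRP1 (168, 162 and 4333). Those most like FLJ22447 were CD74 (60, 40 and 1723), LY6D (40, 34 and 1474) and the tight junction gene CLDN7 (112, 102 and 3476). Of these 9 genes, ESRP1 and CLDN7 were on the list of epithelial junction genes.

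Among lncRNAs, C21orf49 (35 reads in H1299, 38 in A549 and 1546 in HBE) was, outside the 6 genes, the most like each of the 3 HBE-high genes, at 0.75 from UCA1, 0.31 from LINC00958 and 0.34 from FLJ22447. The pseudogene KRT16P2 (31, 24 and 487) was among the closest 3 of all of them, and the imprinted lncRNA H19 (94, 147 and 5706) was among those of UCA1 and FLJ22447. Reads of KRT16P2 can stem from keratin genes of near-identical sequence. The 3 genes were 0.38 to 1.01 apart from each other by the same measure.

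For LINC00461 the coding genes most alike were XAGE1C (13535 reads in H1299, 4007 in A549 and 225 in HBE), PRAME (4470, 3369 and 76) and TPM2 (3532, 2943 and 45). XAGE1C and PRAME are cancer-testis antigens and TPM2 is a tropomyosin. No lncRNA came within 0.50 of it, and the closest, TEKT4P2 (79, 61 and 5), was at 1.16. For LOC100506299 they were HMOX1 (368, 1478 and 84), the heme-degrading enzyme, HSD17B14 (66, 168 and 12) and PPP1R14A (157, 588 and 23). For LINC01234 they were CPT1A (1335, 1534 and 218), which brings fatty acids into mitochondria, ME3 (413, 295 and 61) and RBM24 (210, 222 and 41), and the lncRNA LOC100506844 (176, 126 and 25) on the same chromosome was at 0.17. LINC01234 had the least particular pattern, with 75 coding genes within 0.50, against 2 for LINC00461 and 8 for UCA1.

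**Figure D5:**
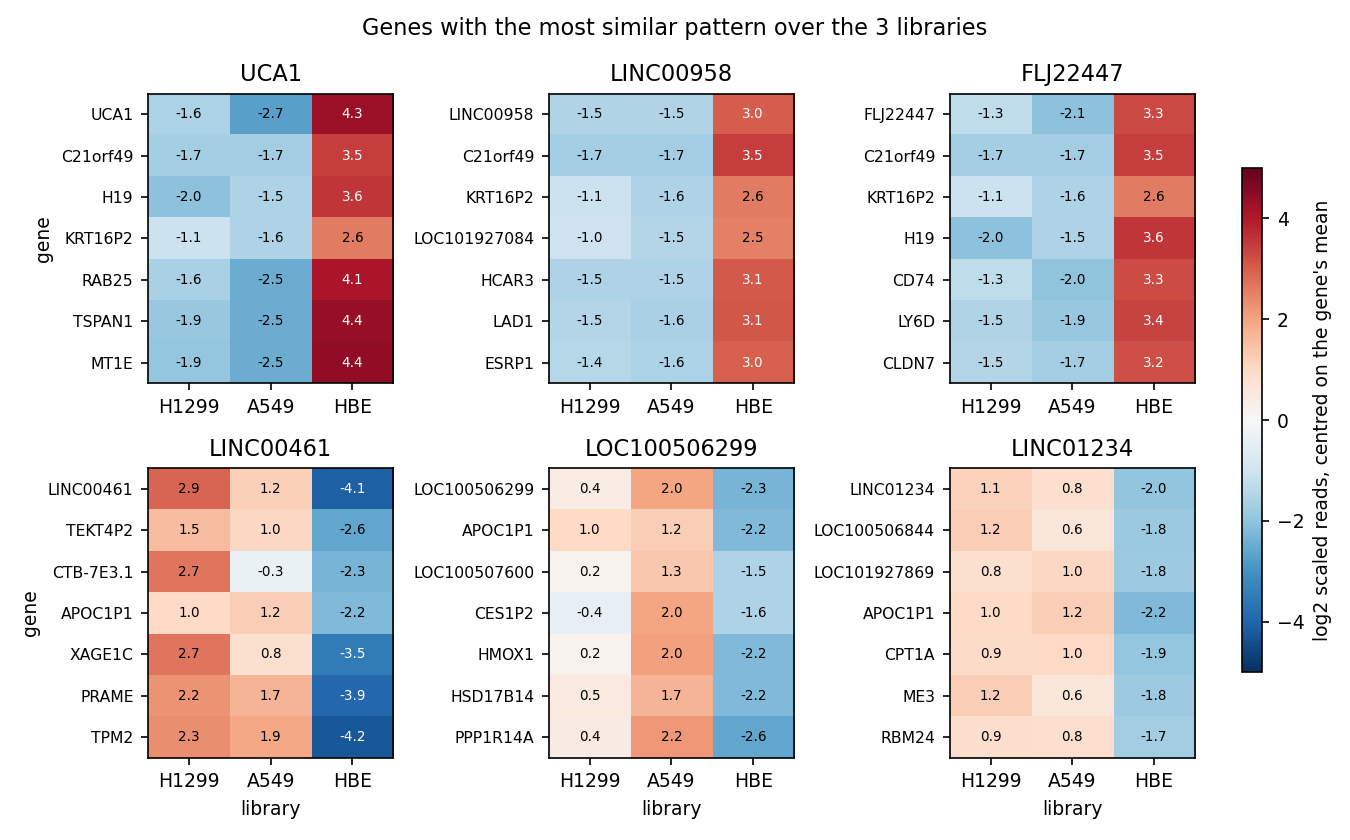
log2 scaled reads, centred on the mean of each gene, for each of the 6 lncRNAs (top row of its panel) and for the 3 lncRNA and the 3 coding genes with the most similar pattern, in H1299, A549 and HBE. Colour and printed number are the same value, and the coding genes listed under LINC00958 and FLJ22447 are at most 0.23 from them.

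Gene lists tied to what these lncRNAs are known for were counted in the same way. Over all lncRNA genes, 2.47% were called higher and 0.721% lower in H1299 against HBE, and 1.45% and 0.524% in A549 against HBE. Of 26 other lncRNAs studied in carcinomas, 0 were called higher and 2 lower in H1299 against HBE (H19 and LINC00473), and 1 higher (LUCAT1) and 1 lower (H19) in A549 against HBE. Their median log2 ratios were 0.28 and 0.24, and -0.12 and -0.13 with TMM factors, and MALAT1 (9504 reads in H1299, 12962 in A549 and 11527 in HBE) was near its HBE level. LINC00473 had 46, 364 and 336 reads.

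Of 16 urothelial genes, set beside UCA1 and LINC00958 for their bladder origin, 4 were called lower in H1299 against HBE (UPK3B, KRT7, ELF3 and KLF5). In A549 against HBE 1 was called lower (UPK3B) and 1 higher (UPK1B). Over all coding genes, 2.41% were called lower in H1299 against HBE, and 1.47% lower and 1.95% higher in A549 against HBE. UPK3B, a uroplakin of the bladder lining, had 21 reads in H1299, 119 in A549 and 2482 in HBE, and UPK1B had 39, 458 and 48. The medians were -0.46 and 0.15, and the second was -0.23 with TMM factors. Of 24 neural genes, set beside LINC00461, 2 were called higher in each cancer line against HBE, where 2.29% (H1299) and 1.95% (A549) of all coding genes were. UCHL1, a neuronal deubiquitinase, had 18188 reads in H1299, 11656 in A549 and 134 in HBE, and the neuronal tubulin TUBB3 had 3247, 2053 and 422. The other 22, among them NEUROD1 (89, 76 and 46) and SYP (175, 147 and 115), were not called. The neural medians were 0.73 and 0.56, beside 0.38 and 0.35 over all coding genes and 0.41 and 0.53 over the olfactory receptor genes. In A549 the neural median was thus near that of the olfactory receptors.

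Of the 4 MEF2 factors none was called, with medians of 0.54 and 0.50. Of HIF1A and 12 of its targets, 2 were called lower in H1299 against HBE (HIF1A and NDRG1) and 1 higher in A549 against HBE (ADM, with 379 reads in H1299, 926 in A549 and 205 in HBE). The medians were -1.01 and -0.22, beside 0.38 and 0.35 over all coding genes, and single members ran both ways. LDHA had 9821, 33726 and 44009 reads, VEGFA 1091, 1349 and 4372 and CA9 457, 868 and 1115, and these were among 7 of the 12 targets that, like HIF1A, had their highest scaled level in HBE. ADM, ANKRD37 (69, 75 and 51) and KDM3A (1771, 1283 and 904) had their lowest scaled level there. Of 10 epithelial junction genes 8 were called lower in H1299 and 5 in A549, each against HBE, and of 8 mesenchymal genes 3 and 2 were called higher. The junction genes CLDN1 (954, 870 and 612 reads) and OCLN (1785, 976 and 1253) went the other way in H1299. They were 1.89-fold (1.70 to 2.09) and 1.73-fold (1.60 to 1.86) higher there than in HBE. Beside the counts of these lists, 2.41% of all coding genes were called lower and 2.29% higher in H1299 against HBE, and 1.47% and 1.95% in A549. Of 6 leukocyte markers none was called in any pair.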

How the data were processed

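Ribosome footprints of H1299, A549 and HBE cells were analysed, 1 library per line. The authors removed adapters, cut reads where Phred scores dropped, aligned the rest to RefSeq RNA with FANSe2, and deposited a whole-number read count per transcript, not normalized. The deposited RPKM was computed by the authors from that count, the whole transcript length and all mapped reads. The submitters' processing notes name hg19. Starts in the tables count from 0 and were raised by 1.

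Reads were summed per gene, scaled by NM reads, and compared as log2 ratios with 0.5 read added. Ratios carry exact 95% counting intervals (Clopper-Pearson on the split of reads) and counts exact Poisson intervals, from scipy 1.17.1; PCR copies are not independent molecules, so they cover counting error only. No test was run; the functions were tested on simulated data. edgeR 4.0.16 gave TMM and upper quartile factors only. Spans came from GENCODE on GRCh37 and microRNA and promoter sequences from RefSeq (GRCh38.p14); start windows of 4 of the lncRNAs were read from GRCh37, and some items are not reported here. Of 329 transcripts without a symbol, 280 were named through RefSeq. The 6 lncRNAs, the gene lists and the rules were chosen with earlier results of these data known. Genes named were the 6 lncRNAs, the 3 nearest coding genes on each side, the 3 lncRNA and 3 coding genes most alike, the MIR9 precursors, list members as examples, and GAPDH and ACTB.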

Additional observations from a re-analysis of the deposited data

How the results depend on the processing

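With 1 library per line no replicate could be left out. No paired analysis was possible because no line has more than 1 sample. The 6 lncRNAs were called as in the report, 3 higher and 3 lower in each cancer line against HBE, when scaled by all mapped reads, TMM factors, upper quartile factors or NM reads without the 12 top transcripts, in thinned libraries, with minimum totals of 1 or 50 reads, with a ratio of 2, and from the most read transcript alone. With a ratio of 8 and the interval beyond 4 the 3 lower ones stayed called, and 2 were higher in each line, without LOC100506299 in H1299 and without LINC01234 in A549. No direction of a called value turned. TMM scaling moved the median of all coding genes to -0.02 in H1299 against HBE and -0.02 in A549 against HBE, beside 0.38 and 0.35, and with it the level of every ratio to HBE. In H1299 against A549 none of the 6 was called, except with a ratio of 2 and the interval beyond 1, where UCA1 and LINC00461 were higher and LOC100506299 lower, 2 and 1. In all, 58 of 60 counts of the 6 lncRNAs, 45 of 66 counts of lncRNAs and 49 of 72 counts of neighbours stayed within 1.5 times. A fall from 3 to 2 and a count that stayed at 0 are within this limit. Nothing is read from the steadier counts of the 6, since they were selected for large differences in these libraries.

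Other counts moved more. Under TMM, 55 lncRNAs were higher and 47 lower in H1299 against HBE, 35 and 38 in A549 against HBE, and 1 neighbour was higher in A549 against HBE. Upper quartile factors gave 39 lncRNAs and 1 neighbour higher in A549 against HBE, and NM reads without the top transcripts also gave 1 neighbour. A ratio of 2 gave 767 lncRNAs higher and 107 lower in H1299 against HBE, 648 and 89 in A549 against HBE and 261 and 189 in H1299 against A549, and 4 and 4, 9 and 3, and 2 and 7 neighbours. A ratio of 8 gave 27 and 13, 12 and 12, and 7 and 11 lncRNAs, with 0 neighbours lower in H1299 against HBE, 1 higher in A549 against HBE and 0 higher in H1299 against A549. Stand-alone lncRNAs alone gave 62, 38 and 27 higher in the 3 pairs and 23 lower in H1299 against A549. With the nearest gene on each side, 1 neighbour was lower in H1299 against HBE, 1 higher in A549 against HBE, and 0 higher and 1 lower in H1299 against A549. Within 500 kb, 1 was higher in H1299 against HBE, and 0 were higher and 4 lower in H1299 against A549. With 10 genes on each side, 2 were higher in H1299 against HBE, 6 higher and 1 lower in A549 against HBE, and 6 lower in H1299 against A549.

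List medians moved with the scaling. Under TMM the neural genes had 0.33 in H1299 and 0.19 in A549 against HBE, the alveolar and club genes 0.079 and 0.28, and the carcinoma lncRNAs -0.12 and -0.13. The urothelial genes in A549 against HBE had -0.23 under TMM, -0.079 under upper quartile factors and -0.012 without the top transcripts, and the leukocyte markers turned to -0.067 in H1299 and -0.17 in A549 against HBE under TMM and to -0.028 in A549 under upper quartile factors, beside 0.33 and 0.20. Upper quartile factors gave 0.018 for the carcinoma lncRNAs and 0.34 for the neural genes in A549 against HBE, and NM reads without the top transcripts 0.40 for the neural genes. The depth limits FLJ22447 and UCA1 most: 8 and 17 reads in A549 leave the H1299 to A549 ratio of FLJ22447 open between 0.686 and 4.97.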
